A study of Homo sapiens with 2 samples.

Results

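A set of 10 genes of cell adhesion and its cytoskeletal link were followed by symbol across 2 single-cell libraries of A549, an established human lung adenocarcinoma line: fibronectin (FN1), vimentin (VIM), E-cadherin (CDH1), N-cadherin (CDH2), the integrin subunits ITGAV, ITGB1 and ITGA3, plakoglobin (JUP), EPCAM and the hyaluronan receptor CD44. All of these symbols were among the 36601 genes of the files, and 8 of them passed a minimum of 20 CPM (UMIs of the gene scaled to a total of 1000000) in either library, which 4307 genes did. CDH1 and EPCAM did not pass it. Control cells were grown in 2D culture, and squashed cells had been confined with micropillars of polydimethylsiloxane (PDMS). Both were sorted, 48 h after confinement or its control, for live cells that had lost ChReporter, a chromosome reporter, a state of about 1 cell in 500, so the controls are also reporter-negative cells of the same line. Each condition is 1 library of the 10x Chromium kit, in which a unique molecular identifier (UMI) marks every captured molecule. Labels give the same batch for both libraries, lung as the tissue and epithelial as the cell type, and how long the cells were confined is not stated in the labels used here.

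Cells attach to fibronectin and laminin through integrins, heterodimers of 1 alpha and 1 beta chain, of which the beta chain ITGB1 pairs with many alpha chains, ITGAV and ITGA3 among them. Cells attach to each other through cadherins, whose tails are tied to the cytoskeleton by catenins such as plakoglobin. In epithelial-to-mesenchymal transition, E-cadherin and EPCAM are classically low, and N-cadherin, vimentin and fibronectin high.

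After filtering, 1906 control cells with 27482392 UMIs and 1930 squashed cells with 23328323 UMIs remained, with medians of 12459 and 9331 UMIs, 2598 and 1790 genes, and a mitochondrial share of 5.77% and 7.10%. The 2 kept sets shared 2 cell barcodes. With 1 library per condition there is no replicate error and no test. A log2 ratio compares the squashed with the control library, not the conditions, and the 95% interval after it covers counting error only. The median ratio of all measured genes was -0.14. Of the lineage lists, epithelial markers summed to 2848 CPM in control and 2114 CPM in squashed cells (7 of 7 genes with a UMI, and 6 of 7), led by KRT18 and KRT8. Fibroblast markers summed to 9.32 and 9.26 CPM, with COL1A2 at 0 in both libraries. Endothelial markers summed to 44.8 and 10.2 CPM, nearly all of it EGFL7, with CDH5, CLDN5 and KDR at 0 in both. Immune markers summed to 15.5 and 23.2 CPM, mostly CD68, with PTPRC, CD3D, CD3E and MS4A1 at 0 in both. Markers of alveolar type 2 cells summed to 0.619 and 0.214 CPM, with 2 of 5 genes having a UMI in each library. NAPSA led in control and the surfactant gene SFTPC in squashed, and the surfactant genes SFTPA1, SFTPA2 and SFTPB were at 0 in both.

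FN1 and JUP were at least 1.5-fold lower in the squashed library, that is 2 of 8 measured members against 12.4% of the 4307 measured genes. No member was at least 1.5-fold higher, against 3.48% of measured genes. Over all measured genes, 532 were lower and 150 higher by that fold, and 361 and 247 with TMM scaling, which moved the median ratio from -0.14 to 0.03. The median ratio of the 8 members was 0.0047. Among the 8 measured members, ITGB1 and CDH2 had the highest ratios, above 93.6% and 93.5% of measured genes, and FN1 and JUP the lowest, above 6.04% and 5.08%.

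The promoters of FN1, JUP and ITGB1 are shown because among the measured members these genes had the lowest pair of ratios and the highest. RefSeq's table on GRCh38.p14 matched 7 of the 10 members. Each sequence is the 250 bases before the start of transcription, on the strand of the gene. Capitals mark 6 motifs searched on both strands: the cyclic AMP response element TGACGTCA, the GC box GGGCGG, the TATA box TATAAA, the AP-1 site TGANTCA, the TEAD site GGAATG and the E-box CAGGTG.
FN1 promoter (chr2:215436069-215436318, minus strand): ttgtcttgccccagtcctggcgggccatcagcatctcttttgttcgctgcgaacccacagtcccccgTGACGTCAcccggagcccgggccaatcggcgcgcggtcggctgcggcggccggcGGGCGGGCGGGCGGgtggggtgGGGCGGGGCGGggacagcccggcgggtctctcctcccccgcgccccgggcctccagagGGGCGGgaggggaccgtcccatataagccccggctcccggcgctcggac
JUP promoter (chr17:41786712-41786961, minus strand): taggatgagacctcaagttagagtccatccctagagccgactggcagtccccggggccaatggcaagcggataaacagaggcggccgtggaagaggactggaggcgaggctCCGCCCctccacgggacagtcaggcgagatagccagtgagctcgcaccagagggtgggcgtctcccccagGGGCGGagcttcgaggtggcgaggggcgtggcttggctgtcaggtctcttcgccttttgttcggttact
ITGB1 promoter (chr10:32958231-32958480, minus strand): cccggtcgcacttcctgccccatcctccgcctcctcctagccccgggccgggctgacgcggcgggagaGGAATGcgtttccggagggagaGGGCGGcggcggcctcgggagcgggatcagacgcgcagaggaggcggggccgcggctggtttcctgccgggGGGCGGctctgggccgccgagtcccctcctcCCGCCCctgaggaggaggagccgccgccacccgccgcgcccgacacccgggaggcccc
The FN1 window held 1 cyclic AMP response element, 183 bases before the start, a motif found in 1.65% of 35116 promoter windows of this length, and 6 GC boxes, some of which overlap. GC boxes occurred in 42.6% of the windows. JUP held 2 GC boxes and no other motif. ITGB1 held 3 GC boxes and 1 TEAD site, the latter found in 11.9% of windows. GC content was 76.4% for FN1, 63.6% for JUP and 78.4% for ITGB1, against a median of 58.0% over all windows. The motifs are matches of letters only.

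Phases were called per cell from 54 genes of G2/M and 43 of G1/S, with no member among them, on cells thinned to 2000 UMIs (1825 control and 1782 squashed cells). G1 held 34.8% of control and 44.9% of squashed cells, S 4.44% and 5.56%, and G2/M 60.7% and 49.5%. G1 and G2/M were further split by nuclear RNA, the UMIs of the nuclear long RNAs MALAT1 and NEAT1 among the 2000, into rich cells (at least 10 UMIs) and poor cells. Rich G1 cells were 18.8% of control and 11.8% of squashed cells, and poor G1 cells 16.0% and 33.1%. Rich G2/M cells were 8% and 14.5%, and poor G2/M cells 52.7% and 35.0%. Rich cells had more detected genes (a median of 4066 in control G1, against 1343 in poor ones) and a higher mitochondrial share (13.7% against 5.61%). The split is a range: 17.2% of control and 25.7% of squashed G2/M cells, but 3.77% and 1.25% of G1 cells, had 7 to 14 nuclear UMIs. Phase names rest on the scores alone. Gene positions below are those of GENCODE 44 on GRCh38.

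**Figure D1:**
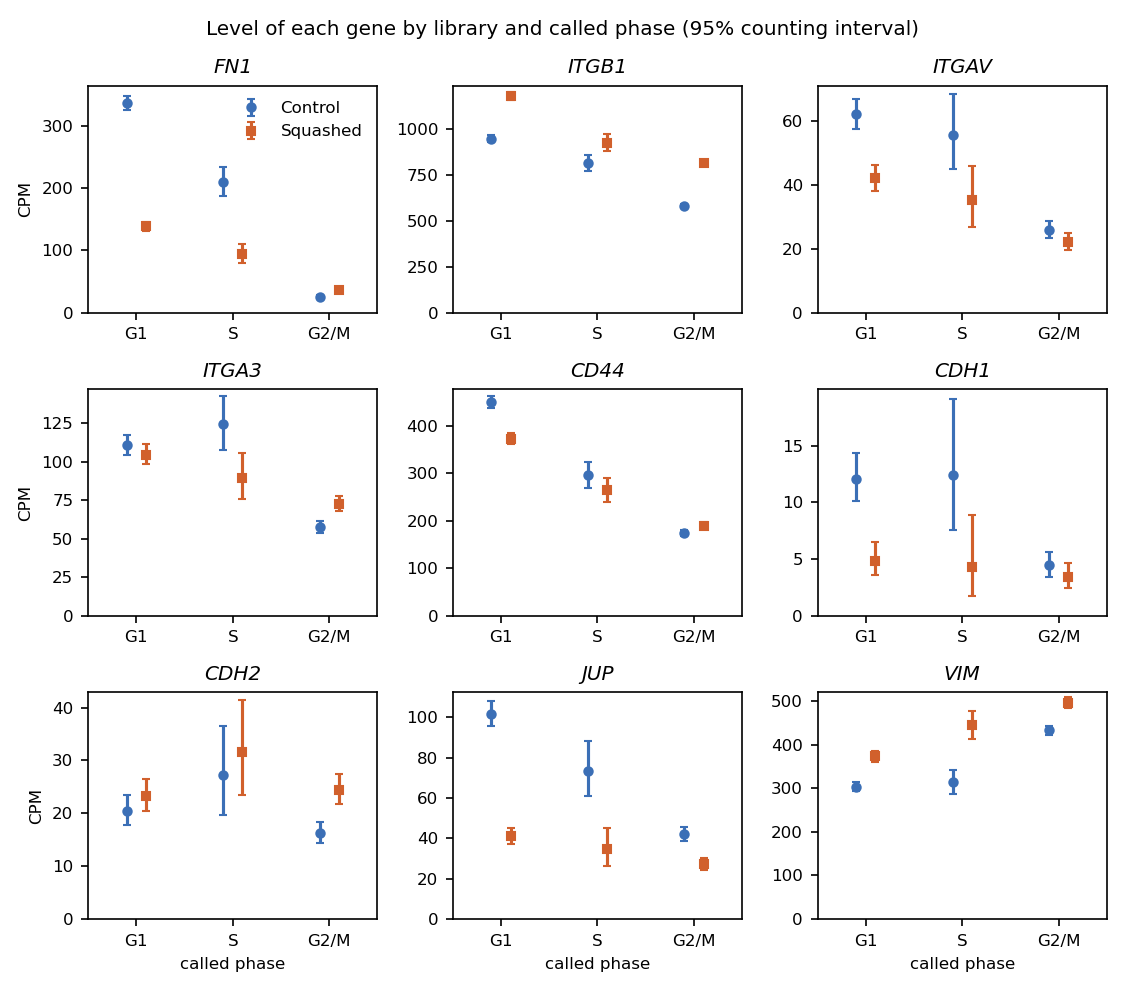
Level of 9 members in CPM (linear axis from 0) in cells called G1, S and G2/M of the control library (circles) and the squashed library (squares), with the exact 95% Poisson interval; EPCAM is left out. FN1 stands at 336 CPM in control and 138 CPM in squashed G1 cells and at 24.9 and 36.7 CPM in G2/M cells, whereas the squashed value of VIM and ITGB1 lies above the control value in each phase.

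FN1 (ENSG00000115414, chr2:215360440-215436073), the matrix protein that integrins bind, was the most phase-dependent member. Its level was 155 CPM in control cells (4271 UMIs; 95% interval 151 to 160) and 82.6 CPM in squashed cells (1927 UMIs; 79.0 to 86.4), a log2 ratio of -0.91 (-0.99 to -0.83). In G1 cells FN1 stood at 336 CPM in control and 138 CPM in squashed, in S cells at 210 and 94.7 CPM, and in G2/M cells at 24.9 and 36.7 CPM. The order from high to low was therefore control G1, control S, squashed G1, squashed S, squashed G2/M and control G2/M, and the intervals of neighbours in it did not overlap. A single control cell held 18.0% of the control FN1 UMIs in S, and a single squashed cell 15.0% of the squashed ones. The ratio was -1.28 (-1.37 to -1.19) in G1, -1.14 (-1.43 to -0.87) in S and 0.56 (0.36 to 0.76) in G2/M, where a single squashed cell held 10.8% of the 435 squashed UMIs. G1 cells thus held 13.5-fold (12.1 to 15.0) the FN1 level of G2/M cells in control and 3.77-fold (3.38 to 4.21) in squashed. The log2 ratio in G1 minus that in G2/M was -1.84 (-2.06 to -1.62, counting error only).

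Within the groups split by nuclear RNA the FN1 values differed from those of the whole phase. The split did not match the libraries for NEAT1 in G1. Rich G1 cells held 5317 CPM of NEAT1 in control and 3446 CPM in squashed, and poor G1 cells 46.6 and 24.2 CPM. Rich G2/M cells held 611 and 596 CPM of NEAT1, and poor G2/M cells 74.4 and 75.6 CPM. The part of NEAT1 in the FN1 ratios was not tested. Rich G1 cells held 460 CPM in control and 239 CPM in squashed, a log2 ratio of -0.95 (-1.05 to -0.85), and poor G1 cells 66.2 and 41.5 CPM, a ratio of -0.67 (-0.96 to -0.39). Rich G2/M cells held 67.2 CPM and 65.7 CPM, with a ratio of -0.03 (-0.28 to 0.21). Poor G2/M cells held 12.6 and 12.7 CPM, a ratio of 0.01 (-0.40 to 0.40). The higher FN1 of squashed G2/M cells as a whole was thus seen in neither of the groups that make it up, while the lower FN1 of squashed G1 cells was seen in rich and in poor cells. The even value of rich G2/M cells depends on their limits: with the split at 5 nuclear UMIs the ratio was 0.37, and with at most 10% mitochondrial UMIs it was 0.76, where a single squashed cell held 45.6% of 103 UMIs. FN1 was 36.3-fold (30.9 to 43.3) higher in rich G1 than in poor G2/M cells of the control and 18.7-fold (15.0 to 23.9) higher in the squashed library. Among G1 cells with at least 30 nuclear UMIs, FN1 stood at 572 CPM in control and 268 CPM in squashed. At 10 to 29 nuclear UMIs it stood at 108 and 53.2 CPM, and at 0 or 1 at 72.6 and 43.8 CPM. G2/M cells with at least 30 nuclear UMIs held 208 CPM (21 control cells) and 154 CPM (50 squashed cells).

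**Figure D2:**
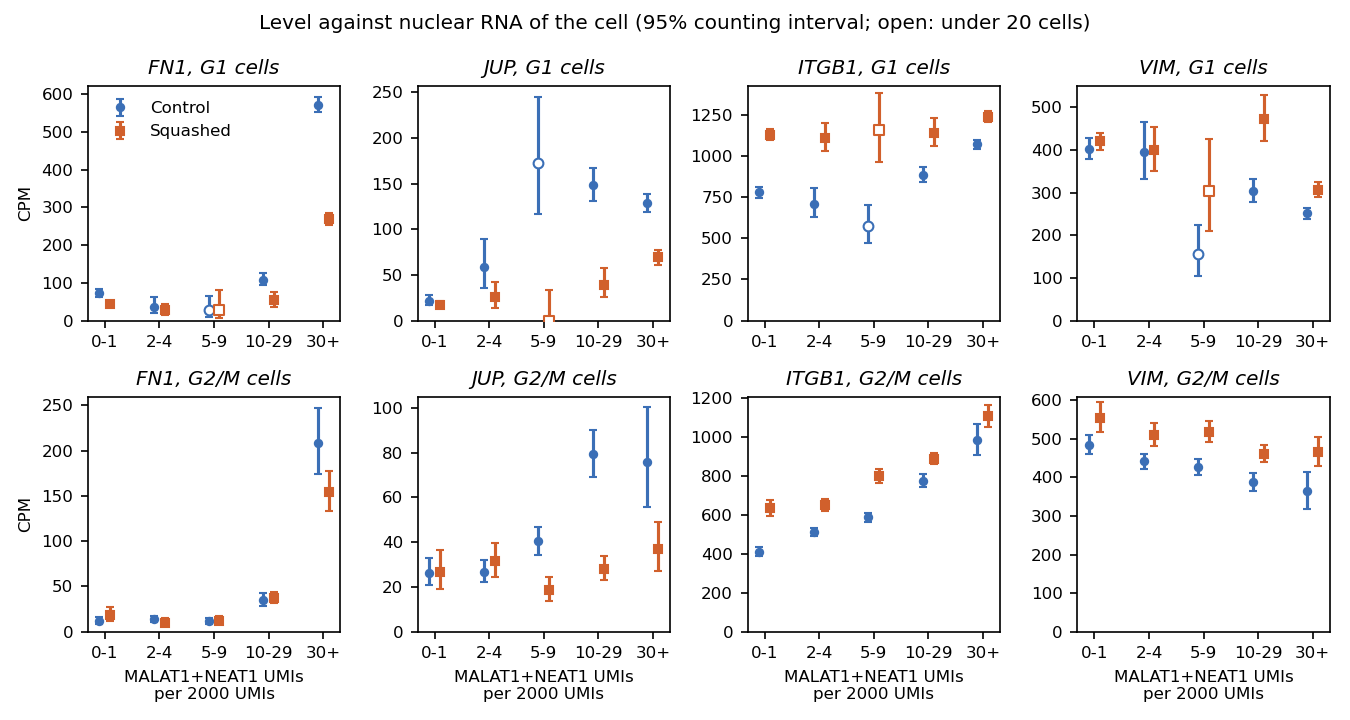
Level of FN1, JUP, ITGB1 and VIM in CPM against the number of MALAT1 and NEAT1 UMIs per 2000 UMIs of a cell, in G1 cells (top) and G2/M cells (bottom), for control (circles) and squashed (squares) with exact 95% Poisson intervals; open marks rest on under 20 cells. FN1 is highest in G1 cells with 30 or more nuclear UMIs, 572 CPM in control and 268 CPM in squashed, and the squashed ITGB1 value is above the control value in every bin.

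FN1 also moved with the mitochondrial share of the cell. Cells with at most 10% mitochondrial UMIs held 50.5 CPM in control and 51.3 CPM in squashed, a log2 ratio of 0.02 (-0.13 to 0.17), and cells above 10% held 300.4 and 122 CPM, a ratio of -1.30 (-1.40 to -1.21). Within rich G1 cells the ratio was -0.57 (-0.77 to -0.38) at or below 10% (564 CPM in 52 control cells, 379 CPM in 49 squashed cells) and -1.15 (-1.27 to -1.03) above it (447 and 201 CPM). The lower squashed FN1 was therefore present in rich G1 cells of either mitochondrial class. A stricter cell filter (a mitochondrial share up to 10%, 1000 genes, 2000 UMIs) gave an FN1 ratio of 0.11 over all cells. Under this filter the ratios in G1 and G2/M were -0.72 and 0.55. In S cells the ratio was 1.45, given without an interval. Before the filter there were 81 control and 99 squashed S cells, with a median mitochondrial share of 12.3% and 11.1%. The filter thus removed most S cells, and its S value is not read as a direction. The part of the mitochondrial share in the difference was not tested.

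ITGB1 (ENSG00000150093, chr10:32887273-33005792), the common beta chain of the laminin, collagen and fibronectin receptors, was higher in the squashed library. Its level was 733 CPM in control (20145 UMIs) and 972 CPM in squashed cells (22684 UMIs), a log2 ratio of 0.41 (0.38 to 0.44), or 0.54 above the median of all measured genes. G1 cells held 945 CPM in control and 1178 CPM in squashed, S cells 811 and 923 CPM, and G2/M cells 580 and 814 CPM. Squashed G1 was highest and control G2/M lowest; control G1 and squashed S overlapped in their intervals, as did squashed G2/M and control S. The ratio lay above 0, with its interval, in each group: 0.25 in rich G1, 0.57 in poor G1, 0.19 in S, 0.21 in rich G2/M and 0.47 in poor G2/M cells. It was larger in poor cells, where the control level was lower (762 CPM in G1 and 512 CPM in G2/M) and the squashed level was 1130 and 708 CPM. Within a library, ITGB1 varied far less than FN1, with rich G1 cells at 2.01-fold (1.94 to 2.08) the level of poor G2/M cells in control and 1.73-fold (1.67 to 1.80) in squashed.

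ITGAV (ENSG00000138448, chr2:186590010-186680901), the alpha chain of RGD-binding integrins that recognise fibronectin and vitronectin, was lower in the squashed library. It stood at 41.4 CPM in control (1137 UMIs) and 31.1 CPM in squashed (725 UMIs), a log2 ratio of -0.41 (-0.55 to -0.28). The levels were 62.0 and 41.9 CPM in G1, 55.6 and 35.3 CPM in S and 25.9 and 22.04 CPM in G2/M. In every pair of neighbours in the order of these 6 levels the intervals overlapped. By group the ratio was -0.46 in rich G1, -0.56 in poor G1 and -0.72 (-1.04 to -0.40) in rich G2/M. There 49.7 CPM in control stood against 30.1 CPM in squashed (0.39 under the stricter cell filter). In rich G2/M cells of at most 10% mitochondrial share the ratio was 0.39 (-0.27 to 1.14), on 24 control and 71 squashed UMIs. In poor G2/M cells it was -0.30 with an interval that reached 0.04. In cells of at most 10% mitochondrial share the ITGAV ratio was -0.11 (-0.33 to 0.11), against -0.64 (-0.81 to -0.46) above that share.

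ITGA3 (ENSG00000005884, chr17:50055968-50090481), the alpha chain of a laminin receptor, differed little over all cells, with 82.1 CPM in control (2256 UMIs) and 87.4 CPM in squashed (2039 UMIs) and a log2 ratio of 0.09 (0.00 to 0.18). The pooled value covered groups that went different ways. Poor G1 cells held 38.7 CPM in control and 67.1 CPM in squashed, a ratio of 0.79 (0.50 to 1.10), and poor G2/M cells 50.3 and 66.3 CPM, a ratio of 0.40 (0.22 to 0.58). Rich G1 cells were at 144 CPM in both libraries (0.00, -0.15 to 0.14), and rich G2/M cells at 83.8 and 80.4 CPM (-0.06, -0.28 to 0.16). In S cells the order was inverse, 124 CPM in control and 89.7 CPM in squashed (-0.47, -0.79 to -0.15). Under the stricter cell filter, which removes most S cells, this ratio was 0.30, given without an interval. ITGA3 was thus higher in squashed cells in the poor groups. Its ratio also changed sign with the mitochondrial share, at 0.49 (0.35 to 0.62) up to 10% and -0.24 (-0.35 to -0.12) above it. Within rich G1 cells the ITGA3 ratio was 0.07 up to 10% and -0.05 above it, each with an interval that held 0. The parts of nuclear RNA and of the mitochondrial share in the ITGA3 ratios were not tested.

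CD44 (ENSG00000026508, chr11:35138882-35232402), the hyaluronan receptor, was close to even over all cells, with ratios of opposite sign in G1 and G2/M. It stood at 288 CPM in control (7906 UMIs) and 272 CPM in squashed (6344 UMIs), a log2 ratio of -0.08 (-0.13 to -0.03). That is 0.05 above the median of all measured genes, so its sign depends on the scaling. G1 cells held 450 CPM in control and 373 CPM in squashed (-0.27, -0.33 to -0.21), S cells 296 and 265 CPM, and G2/M cells 175 and 190 CPM (0.12, 0.04 to 0.20). The median ratio of all measured genes was -0.26 in G1 and -0.06 in G2/M. Relative to these medians CD44 stood at -0.01 in G1, that is at the value of a typical gene, and at 0.17 in G2/M. The levels ran G1, S, G2/M from high to low in both libraries, control above squashed in G1, with overlapping intervals in S only. Rich G1 cells showed the lowest ratio, 476 CPM against 345 CPM (-0.46, -0.55 to -0.38), and rich G2/M cells stood at 213 and 177 CPM (-0.27, -0.41 to -0.13; 0.063 under the stricter cell filter). Poor G1 cells were even at 393 and 401 CPM (0.03, -0.07 to 0.13), and poor G2/M cells higher in squashed at 164 and 201 CPM (0.29, 0.19 to 0.40). Within control, rich G1 cells exceeded poor ones 1.21-fold (1.13 to 1.29), whereas in squashed they stood at 0.861 of them (0.806 to 0.920). The CD44 ratio was 0.27 (0.20 to 0.33) in cells of at most 10% mitochondrial share and -0.45 (-0.52 to -0.38) above that share. In rich G2/M cells the 2 values were 0.06 (-0.17 to 0.31) and -0.47 (-0.66 to -0.29). The part of the mitochondrial share in the CD44 ratios was not tested.

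**Figure D3:**
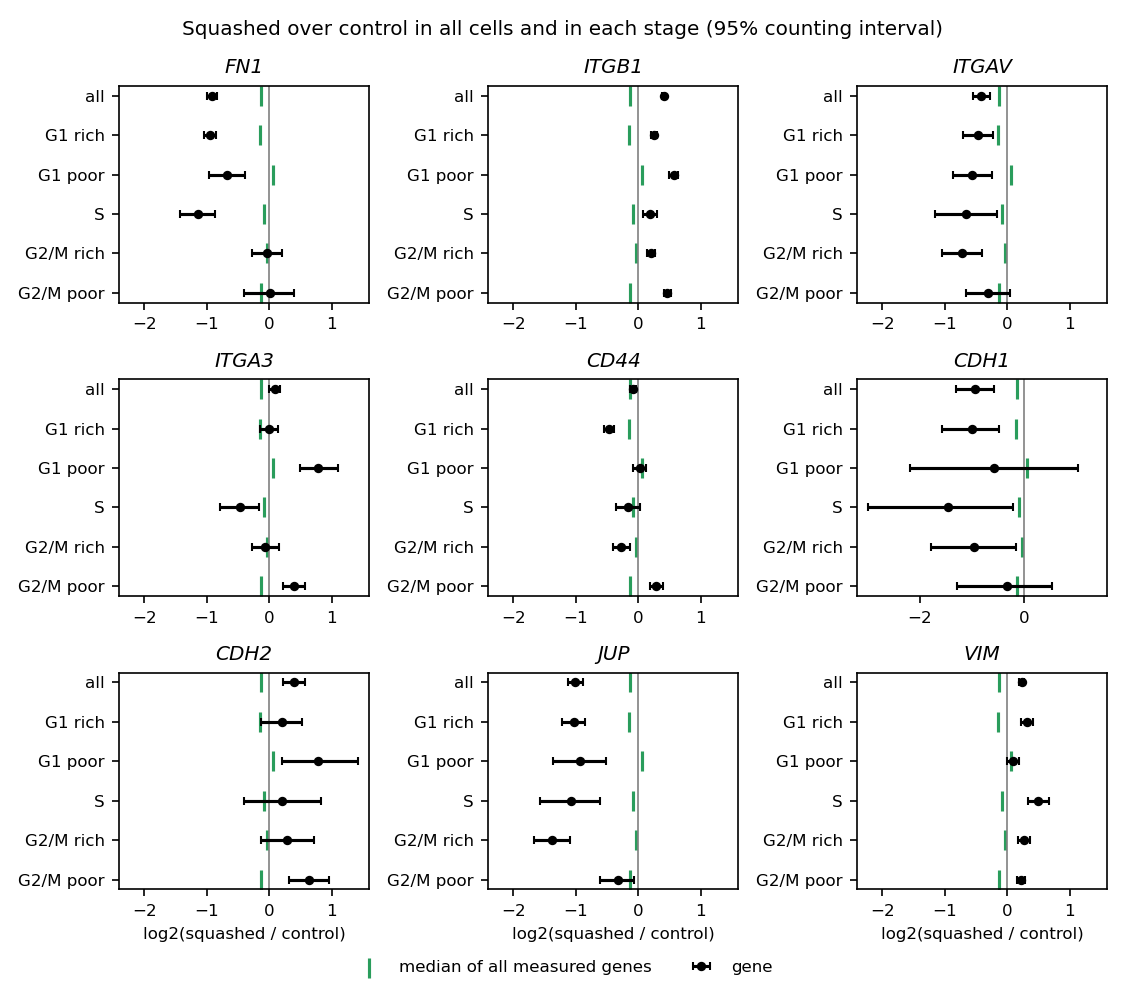
Log2 ratio of squashed over control for 9 members in all kept cells and in 5 groups (phase split by nuclear RNA, S unsplit), with the 95% counting interval (points and lines) and the median of all measured genes in that group (vertical marks); the axis of CDH1 is wider than the others. FN1 lies at -0.95 in rich G1 cells and at 0.01 in poor G2/M cells, JUP lies below 0 in each group, and ITGB1 lies above 0 in each group.

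JUP (ENSG00000173801, chr17:41754604-41786931), plakoglobin, which links cadherins of adherens junctions and desmosomes to the cytoskeleton, was the measured member with the lowest ratio. It stood at 67.0 CPM in control (1842 UMIs) and 33.4 CPM in squashed (779 UMIs), a log2 ratio of -1.005 (-1.13 to -0.88). The level was 102 CPM in control and 41.0 CPM in squashed G1 cells, 73.5 and 34.7 CPM in S cells, and 42.1 and 27.4 CPM in G2/M cells. Control G1 and control S stood apart at the top, and the lowest control value, that of G2/M, overlapped with squashed G1. The ratio was -1.31 (-1.48 to -1.15) in G1, -1.08 (-1.57 to -0.62) in S and -0.62 (-0.82 to -0.43) in G2/M. It was -1.03 in rich G1 cells (133 and 65.1 CPM), -0.93 in poor G1 cells (33.9 and 17.7 CPM) and -1.38 (-1.67 to -1.10) in rich G2/M cells (78.5 and 30.1 CPM). In poor G2/M cells the values were closer, 31.4 and 25.05 CPM, with a ratio of -0.33 (-0.60 to -0.06), which turned to 0.15 with the split at 5 nuclear UMIs. JUP differed from FN1 here: FN1 was even between the libraries in rich G2/M cells, where the JUP ratio was lowest. JUP stayed below 0 in cells of at most 10% mitochondrial share, at -0.69 (-0.89 to -0.48). A single control cell held 14.3% of the JUP UMIs of poor G1 control cells. JUP transcripts have a GC content of 61.5%, and the 350 measured genes above 60% had a median ratio of -0.27; the part of base composition in the JUP value was not tested.

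CDH1 (ENSG00000039068, chr16:68737292-68835537), E-cadherin, the adhesion receptor of epithelia, was scarce in both libraries. It had 216 UMIs (7.86 CPM) in control and 96 UMIs (4.12 CPM) in squashed cells, a log2 ratio of -0.93 (-1.30 to -0.58). G1 cells held 12.1 CPM in control and 4.87 CPM in squashed, S cells 12.4 and 4.33 CPM (20 and 7 UMIs), and G2/M cells 4.46 and 3.46 CPM, where the interval of the ratio was -0.96 to 0.21. Rich G1 cells held 119 of the 216 control UMIs and 39 of the 96 squashed UMIs, at 16.5 and 8.22 CPM (-0.995, -1.57 to -0.47). EPCAM (ENSG00000119888, chr2:47345158-47387601), an adhesion protein of epithelia, had 5 UMIs in 5 control cells and 0 UMIs in squashed cells. A limit of 3 UMIs for a count of 0 stands for 0.129 CPM there. No fold is given for it.

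CDH2 (ENSG00000170558, chr18:27932879-28177946), N-cadherin, the classical cadherin of mesenchyme and neural tissue, was higher in the squashed library, with 18.5 CPM in control (508 UMIs) and 24.5 CPM in squashed (571 UMIs), a log2 ratio of 0.40 (0.23 to 0.58). It stood at 20.5 and 23.3 CPM in G1 (0.19, -0.09 to 0.46), 27.2 and 31.6 CPM in S (0.21, -0.40 to 0.83) and 16.3 and 24.5 CPM in G2/M (0.59, 0.34 to 0.84). Neighbours in the order of these 6 levels overlapped throughout. The difference was larger in poor cells, at 10.3 and 17.9 CPM in G1 (0.79, 0.21 to 1.42) and 14.7 and 23.0 CPM in G2/M (0.64, 0.32 to 0.97). In rich cells the interval of the CDH2 ratio held 0 in either phase. The 2 cadherins thus had opposite signs over all cells.

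VIM (ENSG00000026025, chr10:17228241-17237593), the intermediate filament protein of mesenchymal cells, was higher in the squashed library by a small margin. It stood at 376 CPM in control (10330 UMIs) and 442 CPM in squashed (10302 UMIs), a log2 ratio of 0.23 (0.19 to 0.27). Unlike FN1, JUP, ITGB1, ITGAV, ITGA3 and CD44, VIM was higher in G2/M than in G1 cells, in either library. G1 cells held 303 CPM in control and 373 CPM in squashed, S cells 315 and 444 CPM, and G2/M cells 433 and 496 CPM. Control G1 was 0.701 of control G2/M (0.671 to 0.731), and squashed G1 was 0.752 of squashed G2/M (0.722 to 0.784). By group the VIM ratio was 0.32 in rich G1 (264 and 329 CPM), 0.27 in rich G2/M (384 and 463 CPM) and 0.23 in poor G2/M cells (447 and 524 CPM). In poor G1 cells it was 0.10 with an interval of -0.01 to 0.20.

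FN1 and JUP were lower in squashed cells at each depth, and the size of the other ratios varied with it. In cells of under 5000 UMIs FN1 stood at 90.6 CPM in control and 35.5 CPM in squashed (-1.35, -1.98 to -0.73), at 5000 to under 15000 UMIs at 83.3 and 48.2 CPM (-0.79, -0.96 to -0.62), and at 15000 UMIs or more at 198 and 110 CPM (-0.85, -0.94 to -0.76). JUP had ratios of -1.67, -0.32 and -1.14 in these classes. The median ratio of all measured genes also varied, at -0.34, -0.21 and -0.06. Relative to it, JUP stood at only -0.11 at 5000 to under 15000 UMIs. ITGB1 had ratios of 0.71, 0.59 and 0.34, and VIM of 0.17, 0.08 and 0.32. CD44 was higher in squashed cells below 15000 UMIs, at 0.32 and 0.27, and lower from there on, at -0.31 (-0.37 to -0.25). By the number of genes detected at 2000 UMIs (low, middle and high, cut in 3 equal classes over both libraries), FN1 had ratios of -0.62, -0.56 and -0.71, ITGB1 of 0.58, 0.51 and 0.37, and JUP of -0.10 (-0.49 to 0.30), -0.71 and -1.08. JUP was thus even between the libraries in the cells with the fewest genes, where it stood at 21.2 CPM in control and 19.8 CPM in squashed.

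By called phase, FN1 and JUP were at least 1.5-fold lower in G1, 2 of 8 measured members against 28.3% of 4113 measured genes, and none was that much higher, against 4.52%. In S cells FN1, ITGAV and JUP were, 3 of 8 against 16.5% of 4800 genes, and none higher, against 6.88%. In G2/M cells JUP alone was, 1 of 8 against 9.15% of 4403 genes, and CDH2 was at least 1.5-fold higher, against 4.68%. In rich G1 cells it was FN1 and JUP, 2 of 8 against 16.4% of 4961 genes, and none higher, against 5.76%. In poor G1 cells FN1 and JUP were lower, 2 of 7 measured members against 11.5% of 2590 genes, and ITGA3 higher, against 11.4%. In rich G2/M cells ITGAV and JUP were lower, 2 of 8 against 12% of 4986 genes, and none higher, against 5.44%. In poor G2/M cells none of 6 measured members was lower, against 12.2% of 4074 genes, and CDH2 was higher, against 3.88%.

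The share of cells with at least 1 UMI gave the same order of libraries as the level for each member but CD44 and the undetected EPCAM. At 2000 UMIs per cell FN1 was detected in 13.1% of 1825 control cells (exact 95% interval 11.6 to 14.7) and 8.02% of 1782 squashed cells (6.81 to 9.38), JUP in 9.15% (7.87 to 10.6) and 5.72% (4.69 to 6.91), and ITGAV in 6.79% and 4.66%. ITGB1 was detected in 68.5% (66.4 to 70.7) and 76.5% (74.4 to 78.4), VIM in 51.2% and 55.7%, ITGA3 in 12.8% and 13.5%, and CDH2 in 3.23% and 4.49%. CD44 was detected in 37.6% (35.4 to 39.9) of control and 41.0% (38.7 to 43.3) of squashed cells, although its summed level was lower in squashed. CDH1 was detected in 0.822% and 0.505%, no more than COL1A1, a fibroblast collagen, in 0.822% and 0.786%, while PTPRC and PECAM1 were at 0 in both libraries. Both CDH1 and COL1A1 were thus sparse at this depth. Without thinning, COL1A1 was detected in 13.4% of rich and 0.685% of poor control G1 cells, and CDH1 in 24.1% and 2.40%. These groups also differed in depth, with a median of 19729 UMIs in rich and 9450 in poor control G1 cells. At 2000 UMIs COL1A1 was detected in 5 of 344 rich and 0 of 292 poor cells, and CDH1 in 9 and 0. COL1A1 is not taken as a fixed background for CDH1. EPCAM was detected in 0 of 1825 and 0 of 1782 cells. At this depth the exact 95% interval of the share of cells with a UMI reached up to 0.202% and 0.207%. Without thinning, 0.274% of the control cells and none of the squashed cells had an EPCAM UMI. Without thinning, FN1 was detected in 31.0% and 26.4%, JUP in 40.7% and 26.8%, ITGB1 in 94.7% and 96.4%, and CDH1 in 9.04% and 4.60% of the same cells. FN1 was detected in 44.5% (39.1 to 49.9) of control and 30.8% (24.6 to 37.5) of squashed rich G1 cells, and in 1.87% and 1.61% of poor G2/M cells.

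**Figure D4:**
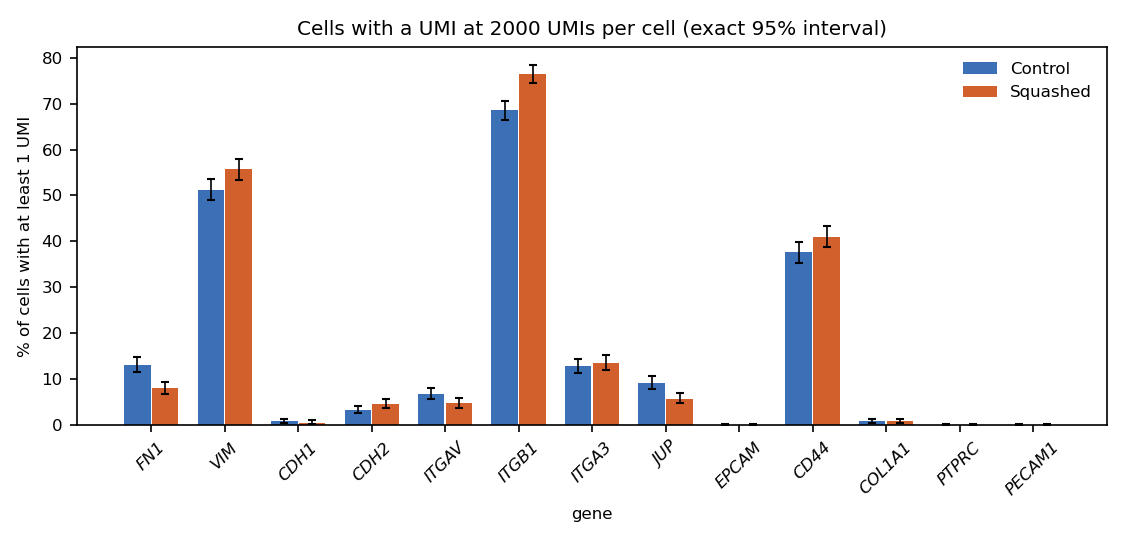
Percent of cells with at least 1 UMI of each member at 2000 UMIs per cell in the control and squashed libraries (bars from 0), with the exact 95% binomial interval, and, on the right, the fibroblast gene COL1A1, the immune gene PTPRC and the endothelial gene PECAM1. ITGB1 reaches 68.5% and 76.5%, while CDH1 (0.822% and 0.505%) stands at the level of COL1A1 (0.822% and 0.786%).

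FN1 had the highest ratio of variance to mean over cells among the members, in either library. With cells thinned to 5000 UMIs (1702 control and 1518 squashed cells), the variance of FN1 UMIs over cells was 6.55 times the mean in control and 3.25 times the mean in squashed, with up to 33 and 11 UMIs in a cell. For ITGB1 it was 2.03 and 2.56 times the mean, and for VIM 1.43 and 1.59 times. The top 10% of cells held 81.2% of FN1 UMIs in control and 79.6% in squashed. For ITGB1 they held 26.5% and 25.6%, and for VIM 27.9% and 27.5%. Sparse members also had high shares, such as JUP with 61.6% and 82.4% and ITGAV with 74.5% and 85.2%, so this share does not rank the members. ITGB1 had a median of 3 UMIs per control cell and 4 per squashed cell, and VIM 2 in either.

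Over single cells of a library, thinned to 2000 UMIs, the genes most like FN1 among 1803 compared were NEAT1 (Pearson's r on log counts of 0.54 over 1825 control and 0.37 over 1782 squashed cells), MALAT1 (0.43 and 0.27) and PAPPA (0.41 and 0.27), a secreted metalloprotease. The same 3 genes led for ITGA3 and JUP, with r of at most 0.20. Mitochondrially encoded genes led for ITGB1 (MT-ND3, 0.29 and 0.22) and, more weakly, for ITGAV (MT-ND3, 0.15 and 0.07). ANXA4 led for CD44 (0.20 and 0.15), and TMSB10 for VIM (0.15 and 0.14). TNS3, an adaptor of focal adhesions, led for CDH2 (0.08 and 0.08), and MALAT1 for CDH1 (0.09 and 0.08). Between members, r was weak: FN1 with CD44 had 0.21 in control and 0.09 in squashed cells, ITGB1 with ITGA3 0.06 and 0.11, and FN1 with VIM -0.12 and -0.04. These values describe cells that share a library, and counts are sparse.

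The 9 lists of related genes gave 50 different measured genes, of which 8 were at least 1.5-fold lower in the squashed library and 0 higher, against 12.4% and 3.48% of all measured genes. With the stricter cell filter 4 of 45 were lower and 1 higher, beside 479 lower and 170 higher of 4033 measured genes. Among other integrin subunits, ITGB4, the beta chain of the hemidesmosome, was lower, with 26.1 CPM in control and 14.8 CPM in squashed (-0.81), and ITGB5 (-0.45), ITGA2 (-0.20) and ITGAE (-0.13) did not reach 1.5-fold, for a list median of -0.32. None of 7 junction plaque genes reached 1.5-fold: CTNNB1, beta-catenin, stood at 77.0 and 55.2 CPM (-0.48), and NECTIN3 (-0.42), PKP4 (-0.29) and NECTIN2 (-0.26) followed, for a list median of -0.26. Of the other cadherins, DSG2 alone was measured, with 33.8 and 29.6 CPM (-0.19). Of the tight junction genes, CLDN2, a pore-forming claudin, stood at 52.9 and 23.4 CPM (-1.17), and TJP1, the scaffold ZO-1, at 58.4 and 59.8 CPM (0.03). None of 8 matrix ligands other than FN1 reached 1.5-fold: the lowest were LAMB1 (-0.54), LAMA5 (-0.45), VTN (-0.41) and SPP1 (-0.40), for a list median of -0.18.

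Of 13 measured integrin adaptors and tetraspanins, SLC3A2, the CD98 heavy chain that binds beta integrins and carries amino acid transporters, stood at 167 CPM in control and 60.4 CPM in squashed (-1.46), and PTK2, focal adhesion kinase, at 33.3 and 19.8 CPM (-0.75). PXN, the focal adhesion adaptor paxillin, had a ratio of 0.47, and CD9, a tetraspanin, one of -0.45. The list median was -0.14, equal to that of all genes to 2 decimals. Of 6 genes around CD44, VCAN, a hyaluronan-binding proteoglycan, stood at 25.9 and 13.4 CPM (-0.95), while the membrane linkers EZR (-0.19), RDX (-0.18) and MSN (0.09) did not reach 1.5-fold. Of 4 measured regulators of epithelial-to-mesenchymal transition, ELF3, an epithelial transcription factor, stood at 127 and 83.8 CPM (-0.60), and TGFBR2 (-0.30), ZEB1 (0.12) and SMAD3 (0.05) did not reach 1.5-fold. Among intermediate filament genes other than VIM, the keratin KRT18 stood at 1691 and 557 CPM (-1.60) and KRT80 at 26.4 and 15.2 CPM (-0.80), whereas KRT8, the partner of KRT18, stood at 796 and 1168 CPM (0.55) and KRT7 at 350 and 381 CPM (0.12).

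The ratios of the members were recomputed under 13 other settings. JUP, CDH1 and ITGAV stayed below 0 and ITGB1, VIM and CDH2 above 0 in each of the 13. FN1 was below 0 in 12 of the 13, the exception being the stricter cell filter, at 0.11. CD44 was above 0 in 5 of the 13, ITGA3 below 0 in 1. JUP ranged from -1.08 to -0.66 and ITGB1 from 0.32 to 0.64.

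**Figure D5:**
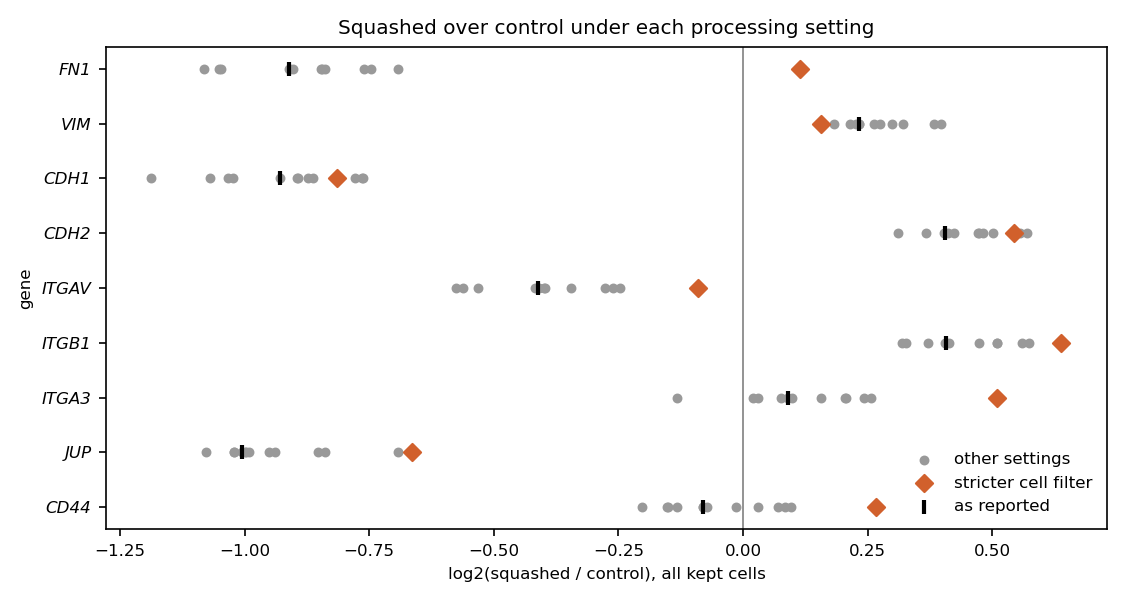
Log2 ratio of squashed over control over all kept cells for 9 members as reported (vertical marks) and under 13 other processing settings (points), with the stricter cell filter as diamonds. FN1 moves from -0.91 to 0.11 under the stricter filter, and JUP (-1.08 to -0.66) and ITGB1 (0.32 to 0.64) keep their side of 0 under each setting.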

How the data were processed

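The authors deposited raw counts of UMIs per gene and barcode, not normalized, per the file headers. Cell Ranger counted them on GRCh38; per the file headers it was version 4.0.0, while the design text gives 5.0.1. Among tools, the submitters' processing notes name R 4.3.2. Kept cells had 500 or more genes, 1000 or more UMIs and a mitochondrial share up to 20%; Scrublet marked 16 control and 15 squashed cells as doublets, which stayed in. UMIs were summed per library and scaled to CPM, with a prior of 0.5 count in the log2 ratio. Intervals are exact Clopper-Pearson (ratios, shares) or Poisson (levels). Members, lists and groups were chosen with earlier results of these data known, and the nuclear RNA split after the values were seen. Named genes are the 10 members, up to 4 measured genes of each list with the largest absolute ratio, and the 3 most correlated genes of each member (genes of at least 50 CPM); of these 3, some are left out where r is low. Annotation was GENCODE 44. Tools were scanpy 1.11.5, pandas 2.3.3, numpy 2.4.6, scipy 1.17.1 and matplotlib 3.10.9 (Python 3.11.15), and, for TMM, edgeR 4.0.16 (R 4.3.3). The log2 ratio with its interval and the thinning of cells were tested on simulated counts, and the other steps were not. The simulated library sums had Poisson error only, without extra variation between cells, so they do not show how the intervals hold where cells vary more. For thinning, only the total per cell was checked.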

Additional observations from a re-analysis of the deposited data

Results flagged for a closer look

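FN1 and CD44 had log2 ratios of opposite sign in G1 and G2/M cells, with each interval away from 0: -1.28 in G1 and 0.56 in G2/M for FN1, and -0.27 in G1 and 0.12 in G2/M for CD44. The median of all measured genes was -0.26 in G1 and -0.06 in G2/M, so the CD44 value in G1 was that of a typical gene. The difference between phases was not tested, since each condition has 1 library. Within the groups split by nuclear RNA, FN1 was even between the libraries in G2/M (-0.03 in rich and 0.01 in poor cells) and lower in squashed G1 cells (-0.95 and -0.67). The G1 groups were not matched for NEAT1, at 5317 and 3446 CPM in rich cells and 46.6 and 24.2 CPM in poor cells. CD44 was lower in squashed rich cells of both phases (-0.46 in G1 and -0.27 in G2/M) and higher in squashed poor G2/M cells (0.29).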

How the results depend on the processing

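Over all kept cells, under 13 other settings, the log2 ratio of JUP, CDH1 and ITGAV stayed below 0 and that of ITGB1, VIM and CDH2 above 0; these settings share the same 2 libraries. With the stricter cell filter it was 0.11 for FN1 (reversed), 0.27 for CD44 (reversed), 0.16 for VIM, -0.091 for ITGAV, 0.64 for ITGB1, 0.51 for ITGA3 and -0.66 for JUP; that filter leaves 1223 control and 1068 squashed cells and removes most rich G1 cells. With every barcode it was -0.69 for FN1, -0.28 for ITGAV, 0.21 for ITGA3 and -0.13 for CD44. TMM scaling moved the median of all genes from -0.14 to 0.03 and gave -0.76 for FN1, 0.38 for VIM, -0.26 for ITGAV, 0.56 for ITGB1, 0.24 for ITGA3, -0.85 for JUP and 0.070 for CD44 (reversed). Median-of-ratios scaling moved it to 0.04 and gave -0.75, 0.40, -0.25, 0.57, 0.26, -0.84 and 0.084 (reversed) for the same genes. Without mitochondrial and ribosomal protein genes in the total it was 0.30 for VIM, 0.47 for ITGB1 and -0.015 for CD44. With cells thinned to 2000 UMIs it was -1.05 for FN1, -0.58 for ITGAV, 0.51 for ITGB1, -0.69 for JUP and 0.030 for CD44 (reversed), and as a mean of CPM over cells -1.05 for FN1, 0.18 for VIM, 0.51 for ITGB1, 0.20 for ITGA3 and 0.10 for CD44 (reversed). In cells with at least 10000 UMIs it was 0.37 for ITGB1 and -0.20 for CD44. With the 3 phases weighted equally it was -1.08 for FN1, 0.32 for VIM, 0.32 for ITGB1, -0.13 for ITGA3 (reversed) and -0.15 for CD44, and with the 5 groups weighted equally, an alternative chosen after seeing the data, 0.27 for VIM, -0.56 for ITGAV, 0.33 for ITGB1 and -0.15 for CD44. Genes at least 1.5-fold higher numbered 150 of 4307 measured, and 247 of 4237 with TMM and 262 of 4233 with median-of-ratios. They numbered 235 of 5871 without mitochondrial and ribosomal protein genes and 2008 of 18427 with no minimum level. Those lower numbered 532 of 4307, and 361 of 4237 with TMM and 349 of 4233 with median-of-ratios. With no minimum 3684 of 18427 were lower, and with a minimum of 50 CPM 236 of 2161. Of the related genes 8 of 50 were lower, and 4 of 45 with the stricter filter, 4 of 31 with a minimum of 50 CPM and 26 of 130 with no minimum. Of them 0 of 50 were higher, and 1 of 45 with the stricter filter, 2 of 50 with TMM and 3 of 50 with median-of-ratios. Without mitochondrial and ribosomal protein genes 2 of 63 were higher, and with no minimum 7 of 130. With thinned cells 1 of 45 was higher, and in cells with at least 10000 UMIs 2 of 50. For these last 2 settings no number over all genes is given. Reversed here means a sign opposite to a main ratio whose interval lay clear of 0. The interval of the recomputed ratio was not used. By phase, 71 of 90 recomputed ratios stayed within their interval, and by group 97 of 120 did. Both counts include EPCAM, whose intervals had no lower limit or were absent and counted as kept. Under the stricter filter FN1 in S (1.45), ITGAV in G2/M (0.043) and ITGA3 in S (0.30) reversed, the S values on few cells. ITGAV (0.39) and CD44 (0.063) in rich G2/M cells also did. At up to 10% mitochondrial share both intervals there held 0 (-0.27 to 1.14 and -0.17 to 0.31). JUP in poor G2/M cells (0.15) reversed with the split at 5 nuclear UMIs. FN1 in rich G2/M cells became 0.76 under that filter and 0.37 with that split. The causes were not tested. Shares of cells moved in 67 of 80 values at 5000 UMIs per cell. Detection rises with depth, so this count does not show how stable the differences between libraries are. No paired analysis was possible because each condition has 1 library and no test was made. Depth limits CDH1 and EPCAM, and counts in S cells.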
